A study of Mus musculus with 82 samples.

Results

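Oil granulomata are the inflammatory tissue that forms on the peritoneal lining around mineral oil, and in BALB/c mice they are the place where plasma cell tumors arise. Their RNA was compared here between day 105 and day 49 after pristane, with 3 arrays of undissected tissue on each day, 6 of the 82 arrays in the series, each array from its own specimen. These 6 arrays were taken by their labels alone (study 2, whole tissue, day 105 or day 49), with no measured value used. The day 105 group and the day 49 group both came from BALB/c.iMycEμ mice, in which a Myc gene sits in the immunoglobulin heavy chain locus. All mice were at least 8 weeks old and had received 0.5 ml of pristane into the peritoneal cavity, and the groups differ in the time since injection. Exact ages are not given, and age at harvest cannot be told apart from that time. No untreated mice, and none without the inserted Myc gene, entered the comparison. A second cohort (study 1) and plasma cells cut by laser from sections of the same study 2 granulomata, which were recognised by methyl green pyronin staining, are used below only beside the main comparison.

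A pristane granuloma holds macrophages and neutrophils that gather around the oil, fibroblasts and mesothelial cells of the peritoneal surface, blood vessels, fat, and plasma cells. Plasma cells are the antibody-secreting end stage of B cells: the transcription factors Irf4 and Prdm1 (Blimp-1) set up their program, and IL-6 from stromal and myeloid cells is a known growth factor for them in this tissue. Myc drives the cell cycle and the building of ribosomes, and in mouse plasma cell tumors it is usually switched on by being joined to an immunoglobulin locus.

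RNA was amplified through 2 linear rounds before hybridization, so values are log2 array signals of 1 probe set a gene and are compared between arrays, not between genes. A gene was tested when it was above the array median on at least 3 of the 15 whole granuloma arrays of study 2, which left 7780 genes. Tests are from limma, fitted to all 15 arrays (days 7, 17, 33, 49 and 105, 3 arrays each), and "rose" or "fell" means a Benjamini-Hochberg adjusted p below 0.05. The labels do not say that the specimens came from separate mice, so p-values measure the spread between these samples. In whole tissue, fewer cells of a type and less RNA per cell cannot be told apart. Array medians were 7.125 to 7.24 on day 105 and 7.261 to 7.295 on day 49. Arrays 2 and 3 of day 105 stood apart from the other 13 on the axis of largest variance (37.3% of it), at 60.5 and 56.6, against 20.2 for array 1 of day 105 and −38.3, −22.4 and 3.2 for the arrays of day 49. The control RNA Dap, which is added during sample preparation, read 6.13, 5.19 and 4.70 on day 105 and 8.73, 8.28 and 4.86 on day 49. With the Dap reading as a covariate, an alternative chosen after the data were seen, 62 genes were higher and 123 lower. All 1519 genes called without the covariate kept their sign with it, 179 of them stayed past the threshold, and the median ratio of their log2 difference with it to that without was 0.82. All 6 arrays had the transcript of female cells, Xist, at 11.73 to 12.59 on day 105 and 11.54 to 12.32 on day 49, and Y-linked genes were near the floor on all of them.

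More genes were lower than higher on day 105, and more so among changes of at least 2-fold. Of the 7780 genes, 618 rose (7.94%) and 901 fell (11.6%), 19.5% in all, and 326 of the increases (4.19%) and 715 of the decreases (9.19%) were at least 2-fold. The values of the days did not overlap for 1334 of the 1519 called genes and overlapped for 185. Of all 7780 genes, 14% had all 3 day 105 arrays above all day 49 arrays and 16.7% had them all below. The threshold itself favours genes whose arrays are separate. The median gene differed by −0.05, and centring each array on its median moved it by 0.107 and turned the split to 934 higher and 818 lower (53.3% higher against 40.7%), so small changes of either sign depend on the scaling. The counts rest on single arrays: without array 2 of day 105 they were 93 higher and 164 lower, without array 3 of day 105 206 and 269, without array 1 of day 49 178 and 396, and without array 2 of day 49 250 and 479. Without array 3 of day 49 they were 972 and 1205, and 910 and 1344 without array 1 of day 105. A core of 82 increases and 153 decreases stayed past the threshold with each of the 6 arrays left out in turn. With the 6 arrays alone in the fit, 2 genes rose (Klra17 and Nbea) and 3 fell (Cxcl1, Igkv9-120 and Clca3a2).

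Among the 12 largest increases were receptors and regulators of the B lineage beside genes of other roles. Klra17, a lectin-like receptor of the Ly49 family, was at 12.31, 12.64 and 13.26 on day 105 and at 9.19, 9.48 and 9.24 on day 49. Every day 105 array lay well above every day 49 array, a 10.8-fold difference (log2 3.43, SE 0.48, limma adjusted p 0.00182). Members of the Ly49 family resemble each other in sequence, and whether other members bind this probe set was not tested. Nbea (neurobeachin, a protein of membrane traffic) was at 11.80, 11.51 and 11.61 on day 105 against 8.16, 9.14 and 9.25 on day 49, a 6.92-fold difference (log2 2.79, SE 0.43, limma adjusted p 0.00259). Its day 105 values sat close together while array 1 of day 49 was the lowest. Tnfrsf13c, the receptor for the B cell survival factor BAFF, was at 10.76, 10.59 and 10.75 on day 105 against 7.69, 8.33 and 9.16 on day 49 (log2 2.31, SE 0.39, limma adjusted p 0.00362). The day 105 arrays were again nearly equal and the spread was on day 49. The others were Serpini1 (neuroserpin, 2.72 on the log2 scale), Pmaip1 (the death protein Noxa, 2.59), Arsg (a lysosomal sulfatase, 2.51), Glcci1 (a glucocorticoid-induced transcript, 2.38), Dtl (a substrate receptor of a ubiquitin ligase that acts in S phase, 2.26), Prdm1 (2.21), Tmem163 (a zinc transporter, 2.12), Slc12a8 (a member of the cation-chloride transporter family, 2.05) and Cited2 (a transcriptional co-regulator, 2.05). Slc12a8 was above the array median on the 3 day 105 arrays alone, so it passed the filter only through the group where it is high. Among these 12, only Pmaip1 lost its call with an array left out, which was array 2 of day 105. With the Dap reading as a covariate the calls of Pmaip1, Serpini1 and Tmem163 were lost.

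The largest decreases were genes of neutrophils, of inflammatory signalling, of fat and of connective tissue. S100a9, a subunit of the calprotectin complex that fills the cytoplasm of neutrophils, was at 8.27, 6.46 and 6.89 on day 105 and at 12.92, 11.29 and 8.77 on day 49, a 13.8-fold decrease (log2 −3.79, SE 0.79, limma adjusted p 0.00893). The groups did not overlap, but array 3 of day 49 was close to array 1 of day 105, and the call was lost without array 2 of day 105. Its partner S100a8 was at 9.85, 8.43 and 8.27 on day 105 against 12.98, 12.04 and 10.75 on day 49 (log2 −3.08, SE 0.51, limma adjusted p 0.00353). Cxcl1, a chemokine that draws neutrophils, was at 7.34, 6.22 and 6.76 on day 105 and at 10.09, 9.93 and 9.75 on day 49, an 8.86-fold decrease (log2 −3.15, SE 0.35, limma adjusted p 0.000875). The day 49 values of Cxcl1 were nearly equal and all day 105 arrays were far below them. The other 9 were Aoc3 (an amine oxidase of fat and smooth muscle, −3.11), Cryab (a small heat shock protein, −2.97), S100a4 (a calcium-binding protein of fibroblasts and macrophages, −2.86), G0s2 (an inhibitor of the main fat cell lipase, −2.80), Pcolce (an enhancer of procollagen cleavage, −2.76), Fabp4 (the fatty acid carrier of fat cells and macrophages, −2.72), Plin4 (a lipid droplet coat protein, −2.72), Fxyd1 (a regulator of the sodium pump, −2.70) and Rab34 (a small GTPase, −2.65). The calls of Aoc3, Cryab, G0s2, Fabp4 and Plin4 were lost without array 2 of day 105. Those of Aoc3, Cryab and Fabp4 were also lost without array 3 of day 105, and those of Aoc3 and Plin4 without array 2 of day 49.

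**Figure D1:**
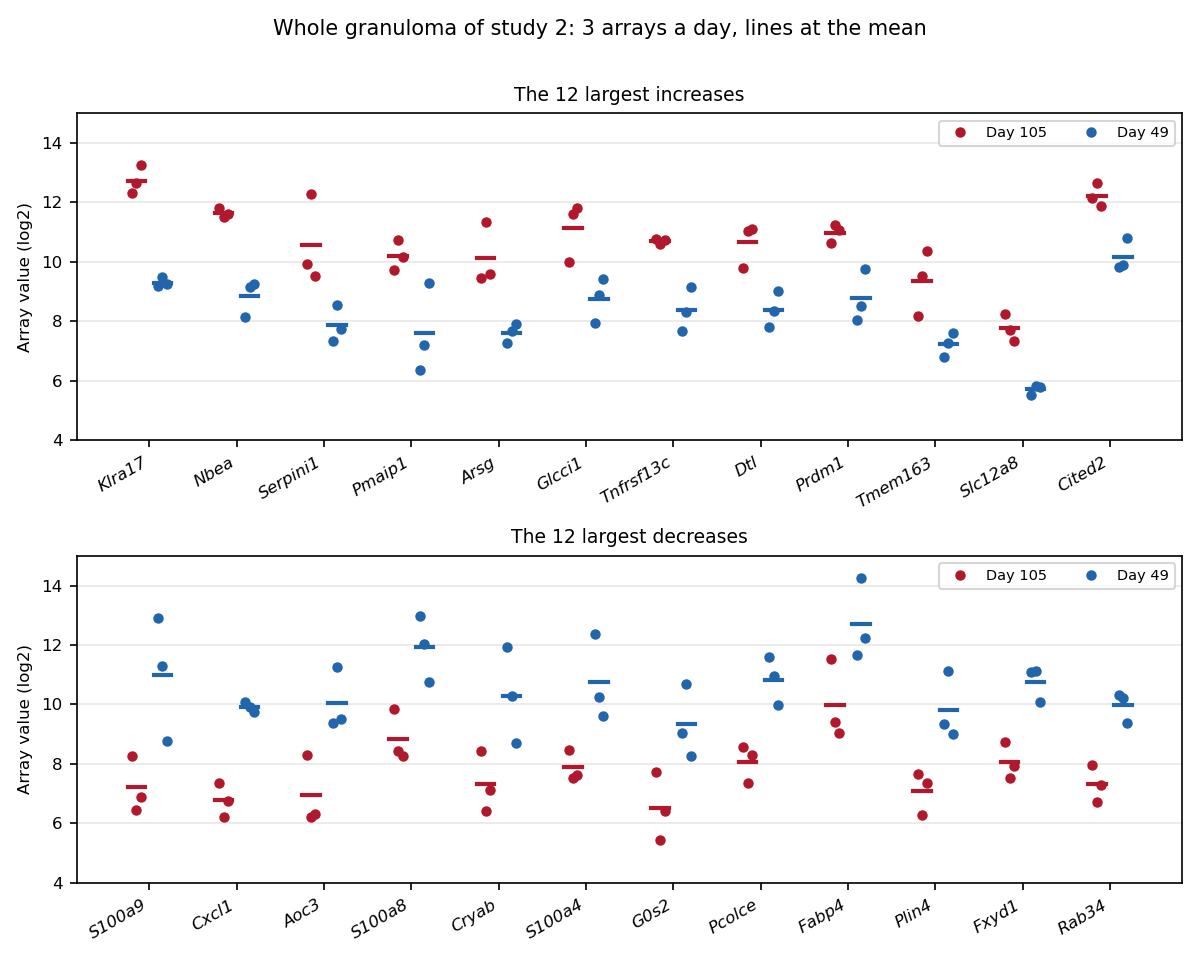
Log2 array signal (vertical axis) of the genes with the largest increases and the largest decreases, with a point for each of the 3 arrays of day 105 and of day 49 and a line at each mean. Klra17 sits between 12.31 and 13.26 on day 105 and between 9.19 and 9.48 on day 49, while Cxcl1 sits between 6.22 and 7.34 on day 105 and between 9.75 and 10.09 on day 49.

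Some regulators and receptors of plasma cells rose, while 9 of 15 tested plasma cell genes, Xbp1, Sdc1 and Jchain among them, did not pass. Of 15 tested plasma cell genes 6 rose and none fell (median log2 difference 0.70, against −0.05 for all genes), and the number that rose was 3 without array 2 or array 3 of day 105 or array 1 of day 49. Prdm1 was at 10.64, 11.25 and 11.07 on day 105 against 8.05, 8.51 and 9.76 on day 49, a 4.64-fold increase (SE 0.42, limma adjusted p 0.00582). Irf4, which acts with it, was at 12.47, 12.10 and 11.99 on day 105 against 10.06, 10.49 and 10.93 on day 49 (log2 1.69, SE 0.35, limma adjusted p 0.0086). Neither gene overlapped between the days, and both calls held with any array left out. With the Dap reading as a covariate the Prdm1 call was kept and the Irf4 call was lost. Tnfrsf13b (TACI, a receptor for BAFF and APRIL) was at 11.34, 11.89 and 11.15 on day 105 against 8.81, 9.36 and 10.71 on day 49 (log2 1.83, SE 0.46, limma adjusted p 0.0175). Its day 49 array 3 came close to the day 105 values, and the call was lost without array 2 of day 105, array 1 of day 49 or array 2 of day 49. Edem1 (0.95), which helps to clear misfolded glycoproteins, the B lineage co-activator Pou2af1 (0.95) and the elongation factor Ell2 (0.87), which favours secretory immunoglobulin mRNA, rose too. Of the genes that did not pass, Xbp1 was at 0.32 (limma adjusted p 0.304). Sdc1, the surface proteoglycan of plasma cells, was at 0.63 (limma adjusted p 0.167). Jchain, the joining chain of polymeric antibodies, was at 0.03 (limma adjusted p 0.936). Summed on a linear scale, the 16 measured plasma cell genes reached 62747 to 97780 on day 105 and 46058 to 58032 on day 49. Of 10 tested B cell genes 9 had a negative difference (median −0.80), and the numbers that fell were 6 without array 1 of day 105 (median −1.44) and 0 without array 2 of day 105. Among them Ly6d, a surface protein of B lineage cells, rose (8.80, 10.56 and 10.43 on day 105 against 8.19, 8.22 and 7.68 on day 49, 1.90) and the transcription factor Spib fell (8.67, 6.14 and 6.10 on day 105 against 8.87, 8.39 and 9.50 on day 49, −1.95). The Ly6d call was lost without array 2 of day 105. The Spib groups overlapped through array 1 of day 105, and that call was lost without array 2 or 3 of day 105 or array 1 or 3 of day 49. Among 8 tested B cell survival and niche genes, Tnfrsf13c rose and Il6 fell. Of 7 tested T and NK cell genes none passed, and Thy1, the T cell and fibroblast surface antigen with the largest difference of them, was at −1.33 (adjusted p 0.0733).

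Several immunoglobulin transcripts fell steeply and others did not pass the test. Of 15 tested immunoglobulin genes 6 fell and none rose (median −1.27), with 4 falling without array 2 or 3 of day 105. The largest decrease was that of a kappa variable segment, the lowest on day 105 in the plot of immunoglobulin genes, which was at 7.16, 5.24 and 4.27 on day 105 and at 12.28, 10.68 and 9.20 on day 49, a 35.8-fold decrease (log2 −5.16, SE 0.77, limma adjusted p 0.00211). Ighm, the constant region of IgM, was at 12.67, 10.40 and 10.16 on day 105 against 14.61, 14.65 and 14.66 on day 49, an 11.8-fold decrease (log2 −3.56, SE 0.47, limma adjusted p 0.00174). Its day 49 values were nearly equal near the top of the scale, and array 1 of day 105 fell less than the other two. Of 7 other tested Ighm probe sets 1 passed the threshold, in the same direction (−3.71), so the size holds for these probe sets and not for every Ighm probe set. Igkv9-120 was at 8.48, 8.45 and 7.96 on day 105 and at 11.03, 11.87 and 11.25 on day 49 (log2 −3.08, SE 0.45, limma adjusted p 0.00197). Its other tested probe set did not pass (−1.79, limma adjusted p 0.15). Igkv6-14 was at 7.19, 9.19 and 4.43 on day 105 against 10.65, 8.27 and 11.58 on day 49 (log2 −3.23, SE 1.02, limma adjusted p 0.0404). Igkv6-14 overlapped between the days and lost its call without array 3 of day 105 or array 1 or 3 of day 49. Igkv19-93 (−0.96) and a further kappa segment (−1.54) fell by less. By contrast Igha, the constant region of IgA, was at 15.03, 14.90 and 14.58 on day 105 and at 14.83, 14.94 and 14.99 on day 49 (−0.09, SE 0.54, adjusted p 0.925). Igkv8-30, another kappa segment, was at 14.15, 14.25 and 14.13 on day 105 and at 14.03, 14.20 and 14.16 on day 49 (0.05, adjusted p 0.886). The Igha values are the highest or near the highest on these arrays, and whether a difference of either gene is hidden by saturation was not tested. Ighg3 was high in a single array, at 11.18, 6.25 and 6.29 on day 105 against 8.71, 7.20 and 7.84 on day 49. Variable segments resemble each other, and cross-hybridization between them was not tested.

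**Figure D2:**
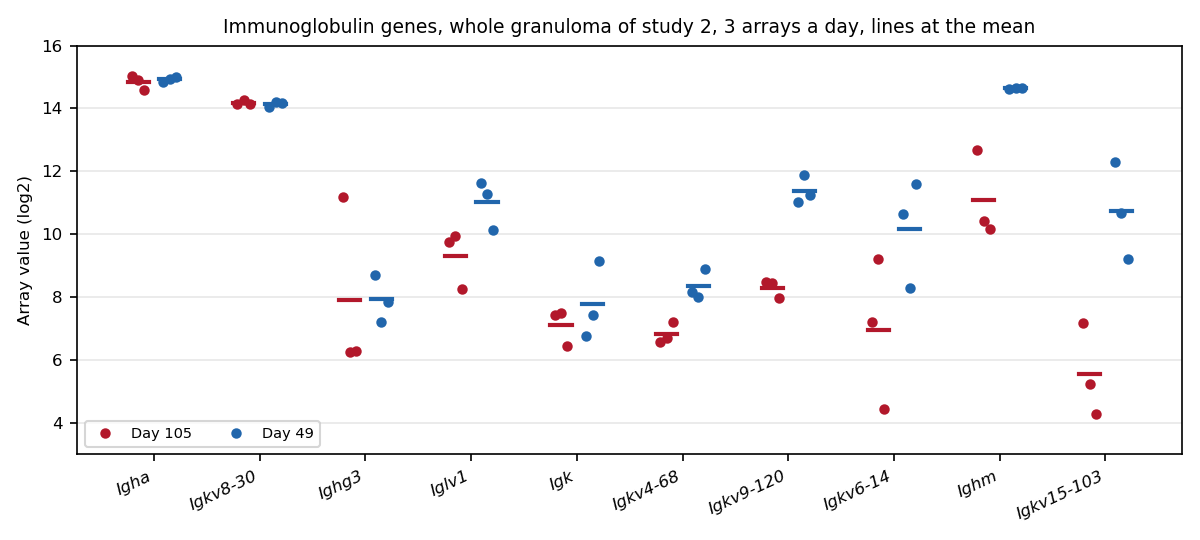
Log2 array signal (vertical axis) of 10 immunoglobulin genes, with a point for each of the 3 arrays of day 105 and of day 49 and a line at each mean. Ighm lies between 10.16 and 12.67 on day 105 and between 14.61 and 14.66 on day 49, while Igha lies between 14.58 and 15.03 on day 105 and between 14.83 and 14.99 on day 49.

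The cell cycle list had the largest share of increases of the lists with 10 or more tested genes. Of 28 tested cell cycle genes 18 rose and none fell (median 0.89), and 19 had all 3 day 105 arrays above all day 49 arrays, as 14% of all genes did. The number that rose was 8 without array 2 of day 105 and 22 at most, and 5 with the Dap reading as a covariate. Kif11, the motor that pushes the spindle poles apart, was at 8.79, 9.54 and 9.69 on day 105 and at 6.78, 7.65 and 7.57 on day 49 (log2 2.01, SE 0.31, limma adjusted p 0.0027). Cdc6, which loads the replicative helicase, was at 10.61, 11.78 and 11.05 on day 105 and at 8.63, 9.25 and 9.65 on day 49 (log2 1.97, SE 0.39, limma adjusted p 0.00655). Aurkb, the mitotic kinase of the chromosome passenger complex, was at 9.86, 10.69 and 10.95 on day 105 and at 8.68, 8.90 and 9.10 on day 49 (log2 1.61, SE 0.29, limma adjusted p 0.00478). Array 1 of day 105 was the lowest of its day for all 3 of these genes and still above every day 49 array. Bub1, a spindle checkpoint kinase, was at 9.28, 9.92 and 9.79 on day 105 and at 8.24, 8.12 and 8.14 on day 49 (2.82-fold, SE 0.24 on the log2 scale, limma adjusted p 0.00311). All of these 4 calls held with any array left out, and only that of Cdc6 was lost with the Dap reading as a covariate. Smaller increases were those of the helicase subunit Mcm5 (1.45), Top2a (topoisomerase II, 1.29) and Cdk1 (the mitotic kinase, 0.93), and the proliferation marker Mki67 did not pass (0.87, adjusted p 0.163).

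The promoters of the rising cell cycle genes are shown because the CCAAT box, which the factor NF-Y binds, recurs in them. The 3 sequences are the 250 bases before the annotated start (RefSeq, GRCm38.p6), on the gene's own strand, in lower case with CCAAT or its other-strand form ATTGG in capitals. Kif11 lies at chr19:37376132-37376381 (plus strand), Bub1 at chr2:127831860-127832109 (minus strand) and Cdk1 at chr10:69352913-69353162 (minus strand).
Kif11: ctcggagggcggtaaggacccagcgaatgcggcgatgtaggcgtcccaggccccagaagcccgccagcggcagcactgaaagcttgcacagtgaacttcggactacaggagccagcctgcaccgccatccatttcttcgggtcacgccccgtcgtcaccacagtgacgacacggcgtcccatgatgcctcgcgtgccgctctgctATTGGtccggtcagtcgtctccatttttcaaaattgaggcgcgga
Bub1: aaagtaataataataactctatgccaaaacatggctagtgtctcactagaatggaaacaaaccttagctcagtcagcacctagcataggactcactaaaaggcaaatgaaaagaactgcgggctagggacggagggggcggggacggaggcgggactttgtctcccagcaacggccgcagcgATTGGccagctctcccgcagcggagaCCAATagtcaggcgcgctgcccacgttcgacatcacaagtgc
Cdk1: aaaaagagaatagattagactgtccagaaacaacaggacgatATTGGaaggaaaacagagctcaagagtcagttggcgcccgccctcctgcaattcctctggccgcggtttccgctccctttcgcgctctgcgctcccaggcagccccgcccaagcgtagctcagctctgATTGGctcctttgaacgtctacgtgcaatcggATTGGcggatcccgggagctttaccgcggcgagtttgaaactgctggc

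CCAAT or ATTGG stood in 15 of the 16 rising cell cycle genes with a promoter in the table (93.8%), and Cdc6 was the gene without it. Over the whole tested cell cycle list it stood in 19 of 23 genes with a promoter (82.6%), so it is not particular to the members that rose. It stood in 2288 of 6322 tested genes with a promoter (36.2%), in 41.9% of the genes that rose and in 34.5% of all promoters. Bub1 has 2 matches, 1 in each orientation, and Cdk1 has 3. The cell cycle element TTTGAA, with its other-strand form TTCAAA, stood in 5 of the 16 (31.2%). It stood in 8 of the 23 genes of the whole tested list (34.8%) and in 10.7% of tested genes. Such a match is a string of letters, not a measured binding site.

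Myc itself was at 11.50, 12.22 and 12.36 on day 105 and at 11.34, 11.54 and 11.42 on day 49, a log2 difference of 0.60 (SE 0.27) that did not pass (limma adjusted p 0.124). Arrays 2 and 3 of day 105 were above all day 49 arrays and array 1 lay among them. Of 25 tested Myc target and ribosome biogenesis genes 7 rose and none fell (median 0.49), from 0 without array 2 of day 105 to 9. Ppat, the first enzyme of purine synthesis, was at 10.65, 11.24 and 10.26 on day 105 and at 7.83, 8.62 and 9.99 on day 49 (log2 1.90, SE 0.44, limma adjusted p 0.013). Rrs1 (1.49) and Rrp12 (1.43), both needed to make ribosomal subunits, and Polr1b (1.30), a subunit of RNA polymerase I, rose as well. The calls of these 4 genes were lost without array 2 of day 105, and that of Polr1b also without array 1 of day 49. In the Myc network the antagonist Mxi1 rose by 1.14, a call lost without array 2 or 3 of day 105 or array 1 of day 49. Mxd4, another antagonist, fell by 0.71, a call lost after quantile normalization, after median centring and with 4 of the 6 left-out arrays. Of 20 tested cytosolic ribosomal protein genes 1 rose (Rps6, 1.08; median of the list 0.05), and of 18 respiratory chain genes none passed (median −0.09, 0.02 after median centring). The member with the largest difference there was Sdhc, a subunit of complex II (−0.60, adjusted p 0.127).

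Some genes of RNA processing and of the endoplasmic reticulum rose. Of 25 tested splicing factor genes 7 rose and none fell (median 0.55), from 1 to 10 with an array left out and fewest without array 2 or 3 of day 105 or array 1 or 2 of day 49. Srsf5 was at 12.62, 12.81 and 12.76 on day 105 and at 11.35, 11.11 and 11.87 on day 49 (log2 1.29, SE 0.33, limma adjusted p 0.0185). The splicing factors Luc7l2 (1.37), Rbm25 (1.29) and Hnrnpu (1.16) rose too, and the days overlapped for Luc7l2 and Rbm25. None of the other tested probe sets of these genes passed (4 for Luc7l2, 2 for Rbm25 and 2 for Hnrnpu). Those of Luc7l2 ranged from −0.32 to 0.58. In the unfolded protein response and secretion list 6 of 27 tested genes rose and 1 fell (median 0.37), with 1 rising without array 2 of day 105 or array 1 of day 49 and 10 at most, and 20 of the 27 did not pass. Ern1, the sensor kinase that splices Xbp1 mRNA, was at 7.56, 8.00 and 8.27 on day 105 and at 6.70, 6.66 and 7.08 on day 49 (log2 1.13, SE 0.22, limma adjusted p 0.00633). Ern1 did not overlap and kept its call with any array left out, but lost it with the Dap reading as a covariate. Sel1l (1.58), which carries misfolded proteins out of the endoplasmic reticulum, and the chaperones Dnajb11 (1.06) and Pdia3 (1.05) rose, each call being lost without at least 4 of the 6 arrays in turn. The stress factor Ddit3 fell by 0.91. Of 25 proteasome genes 2 rose, a share near the 7.94% of all genes, Psmd1 (0.82) and Psmd14 (0.58), with none past the threshold without array 2 or 3 of day 105 or array 1 or 2 of day 49.

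Chemokines and cytokines of inflammation were lower on day 105. Of 25 tested chemokine and chemokine receptor genes 9 fell and none rose (median −0.70), from 5 without array 2 or 3 of day 105 to 13. Ccl2, which draws monocytes, was at 7.86, 6.49 and 6.92 on day 105 and at 9.39, 9.13 and 9.31 on day 49 (log2 −2.19, SE 0.29, limma adjusted p 0.00174). Cxcl14, a chemokine of stromal cells, was at 6.21, 5.37 and 5.67 on day 105 and at 9.03, 8.00 and 7.38 on day 49 (log2 −2.39, SE 0.45, limma adjusted p 0.00569). Neither overlapped, and both calls held with any array left out. Cxcl2, which like Cxcl1 draws neutrophils, was at 9.80, 6.90 and 7.38 on day 105 and at 10.52, 9.51 and 10.80 on day 49 (log2 −2.25, SE 0.65, limma adjusted p 0.0284). Array 1 of day 105 lay within the day 49 range for Cxcl2, and the call was lost without array 2 or 3 of day 105 or array 1 or 3 of day 49. Cxcl9, a chemokine induced by interferon gamma, was not called (10.21, 6.77 and 7.69 on day 105, 6.05, 6.39 and 6.25 on day 49; 2.00, adjusted p 0.144), with array 1 of day 105 far above the rest. Of 9 tested cytokine genes 7 fell and none rose (median −1.14), but none passed without array 2 of day 105 (median −1.01) and none with the Dap reading as a covariate. Il6 was at 5.32, 5.92 and 6.85 on day 105 and at 8.66, 7.65 and 6.86 on day 49 (log2 −1.69, SE 0.48, limma adjusted p 0.0267). Its array 3 values of the days were nearly the same, and the call was lost without array 1 or 2 of day 105 or array 1 or 2 of day 49. Il1b (−1.57), the main interleukin-1 of macrophages, Il18 (−1.54), a related cytokine, and Csf1 (−1.45), the macrophage growth factor, fell as well.

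Several of these falling genes hold the letters of the NF-kappaB motif before their start, which is why 3 of their promoters are printed. They are again the 250 bases before the annotated start (RefSeq, GRCm38.p6), with GGG, any 2 bases and TTTCC, or its other-strand form GGAAA, any 2 bases and CCC, in capitals. Cxcl1 lies at chr5:90890995-90891244, Cxcl2 at chr5:90903649-90903898 and Il6 at chr5:30012864-30013113, all on the plus strand.
Cxcl1: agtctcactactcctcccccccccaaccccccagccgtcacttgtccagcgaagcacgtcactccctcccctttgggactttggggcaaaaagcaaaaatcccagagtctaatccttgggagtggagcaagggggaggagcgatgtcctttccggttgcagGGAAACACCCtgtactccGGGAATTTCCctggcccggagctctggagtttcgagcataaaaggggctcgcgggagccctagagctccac
Cxcl2: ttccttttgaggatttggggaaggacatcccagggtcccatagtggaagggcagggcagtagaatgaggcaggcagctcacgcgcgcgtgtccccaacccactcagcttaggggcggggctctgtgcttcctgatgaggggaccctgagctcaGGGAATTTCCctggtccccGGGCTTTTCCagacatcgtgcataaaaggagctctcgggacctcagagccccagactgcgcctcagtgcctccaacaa
Il6: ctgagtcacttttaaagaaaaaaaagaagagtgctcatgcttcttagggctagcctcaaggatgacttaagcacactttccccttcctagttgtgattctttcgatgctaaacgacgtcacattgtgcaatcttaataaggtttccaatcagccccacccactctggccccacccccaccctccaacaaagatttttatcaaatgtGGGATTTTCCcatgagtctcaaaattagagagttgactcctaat

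This motif stood in 5 of 13 falling chemokine and cytokine genes with a promoter in the table (38.5%), with 2 matches each in Cxcl1 and Cxcl2 and 1 in Il6. It stood in 1.46% of tested genes, in 2.79% of the genes that fell and in 1.4% of all promoters. Its share over the whole tested chemokine and cytokine lists was not counted. The motif is therefore not shown to be particular to the members that fell. Of 11 tested genes of the NF-kappaB pathway itself 3 fell and none rose. Relb, a subunit, was at 7.42, 5.92 and 5.74 on day 105 and at 9.07, 8.16 and 8.08 on day 49 (log2 −2.08, SE 0.43, limma adjusted p 0.00878). The inhibitors Nfkbie (−1.63) and Nfkbia (−0.73), which NF-kappaB itself induces, fell too, and all 3 calls were lost without array 2 of day 105.

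Several genes that act downstream of IL-6 were lower on day 105. Of 15 tested genes of the IL-6 and STAT3 list, 6 fell and none rose (median −0.75), with 3 falling without array 2 of day 105 or array 2 of day 49. Cebpd, a transcription factor induced by IL-6, was at 8.60, 8.01 and 8.22 on day 105 and at 11.34, 11.10 and 10.29 on day 49 (log2 −2.63, SE 0.33, limma adjusted p 0.00144). Socs3, the feedback inhibitor of STAT3, was at 9.46, 9.76 and 9.50 on day 105 and at 11.12, 11.10 and 10.75 on day 49 (log2 −1.42, SE 0.28, limma adjusted p 0.00614). Il6st, the signalling receptor chain gp130, was at 10.93, 9.99 and 9.85 on day 105 and at 11.67, 11.58 and 11.77 on day 49 (log2 −1.41, SE 0.27, limma adjusted p 0.00582). The days did not overlap for any of these 3, whose calls held with any array left out. With the Dap reading as a covariate the Socs3 call was lost. The other tested Il6st probe set overlapped between the days and did not pass (−0.35, limma adjusted p 0.578). Of 17 tested immediate early and stress genes 8 fell and 1 rose (median −1.24), with 2 falling without array 2 of day 105 and 11 at most. Egr1 (−1.70), Ier3 (−1.65), Klf2 (−1.52) and Klf4 (−1.43), which many stimuli induce within minutes, did not overlap between the days, and only the Ier3 call held with any array left out. Of 21 tested interferon response genes 1 fell (the GTPase Gbp2, −1.63) and none rose, and the median of −0.07 became 0.03 after median centring. That list rests on array 1 of day 105, without which 9 genes fell (median −0.86), while none fell without array 2 of day 105 (median 0.35).

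Neutrophil genes fell beyond the calprotectin pair. Of 11 tested, 6 fell and none rose (median −1.04), with 2 falling without array 2 of day 105 and 7 at most, and 2 with the Dap reading as a covariate. Chil1, a chitinase-like protein of neutrophils and macrophages, was at 10.62, 8.48 and 9.68 on day 105 and at 12.17, 12.37 and 11.83 on day 49 (log2 −2.53, SE 0.49, limma adjusted p 0.00619). Mmp9, the gelatinase of neutrophil granules, was at 8.29, 6.71 and 6.76 on day 105 and at 9.19, 8.83 and 9.56 on day 49 (log2 −1.94, SE 0.42, limma adjusted p 0.00983). Both were below every day 49 array on all 3 day 105 arrays. Chil1 kept its call with any array left out and Mmp9 lost it without array 2 of day 105. Neither call was kept with the Dap reading as a covariate. The 15 measured neutrophil genes, 4 of them too low to be tested, summed to 2322 to 5560 on day 105 and 9224 to 24618 on day 49. These sums did not overlap. A linear sum weighs bright genes most, S100a8, S100a9 and Chil1 among them, so it is not separate evidence beside their calls. Of 6 tested mast cell and eosinophil genes 3 fell: the histamine-making enzyme Hdc (−1.59) and the mast cell proteases Cpa3 (−1.77) and Cma1 (−1.69). The Hdc call held with any array left out, and was the only 1 of the list without array 2 or 3 of day 105 or array 1 of day 49. Of 5 tested dendritic cell genes the maturation marker Cd83 fell (−1.87), a call lost with 5 of the 6 left-out arrays.

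Macrophage genes fell in part. Of 19 tested macrophage genes 6 fell and none rose (median −0.53), from 1 without array 2 of day 105 to 9, and the linear sum over the 20 measured macrophage genes, 1 of them too low to be tested, was 34597 to 71151 on day 105 and 62547 to 102576 on day 49. Cd14, the co-receptor for bacterial lipopolysaccharide, was at 10.30, 9.86 and 10.04 on day 105 and at 12.43, 12.09 and 11.85 on day 49 (log2 −2.06, SE 0.34, limma adjusted p 0.00353). Its day 105 values were close together and all far below day 49, and the call held with any array left out. The endosomal marker Cd68 (−1.54) and the signalling adaptors Tyrobp (−1.52) and Fcer1g (−1.42) fell as well, with calls lost without array 2 of day 105. Among 14 tested genes of alternative activation 4 fell, including the arginine-degrading enzyme Arg1 (−1.50), the mannose receptor Mrc1 (−1.26) and the folate receptor Folr2 (−0.96). None of that list fell without array 2 or 3 of day 105 or array 1 of day 49, and 6 did at most. The days overlapped for Arg1 and Mrc1, and each of these calls was lost with 5 of the 6 left-out arrays, that of Arg1 also after median centring. The lectin Mgl2 rose instead (7.71, 8.98 and 6.57 on day 105 against 5.69, 5.45 and 6.72 on day 49, 1.80), with overlapping groups. Of 17 tested lipid handling genes 7 fell and 1 rose (median −1.14), with 2 falling without array 2 of day 105 and 10 at most. Lgals3, a galectin of activated macrophages, was at 12.56, 10.92 and 10.85 on day 105 and at 13.63, 13.11 and 13.45 on day 49 (log2 −1.96, SE 0.38, limma adjusted p 0.00587). Cd36, the scavenger receptor for oxidised lipid (−1.93), and Plin2, the coat of macrophage lipid droplets (−1.58), fell too, and the cholesterol exporter Abcg1 rose by 0.83. The days overlapped for Cd36, and neither of its 2 other tested probe sets passed. Its call was lost without array 2 or 3 of day 105 or array 2 or 3 of day 49.

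Of 7 tested Fc receptor genes 1 rose and 3 fell, Fcer1g being 1 of those that fell. Fcgr4, the activating receptor for IgG2 antibodies, was at 10.72, 8.65 and 10.18 on day 105 and at 8.36, 7.82 and 8.80 on day 49, and rose by 1.52 (SE 0.42, limma adjusted p 0.0247) with overlapping groups. The inhibitory receptor Fcgr2b was at 10.78, 9.80 and 10.07 on day 105 and at 11.60, 11.05 and 11.38 on day 49, and fell by 1.13 (SE 0.28, limma adjusted p 0.017) without overlap. Fcgr3 fell by 0.98. Leaving out array 3 of day 105 or array 1 of day 49 ended all 3 calls. Of 13 tested complement genes 5 fell and none rose (median −0.83), with the decay-accelerating protector Cd55 at −2.19, the protease C1ra at −1.93, properdin (Cfp) at −1.50 and C2 at −1.32, and none of the list fell without array 2 of day 105. Of 20 tested lysosome genes 3 fell, the cathepsins Ctsd (−0.84) and Ctsl (−0.84) and the acid lipase Lipa (−1.26), and the glucuronidase Gusb rose by 1.10. That share is near the 11.6% of all genes that fell. None of the lysosome genes fell without array 2 or 3 of day 105 or array 1 or 2 of day 49, and 9 fell without array 1 of day 105. Neither of the 2 other tested Lipa probe sets passed. Of 13 iron and heme genes 3 fell: the siderophore carrier Lcn2 (−1.83), the biliverdin reductase Blvrb (−1.67) and haptoglobin (Hp, −1.65), with none falling without array 2 or 3 of day 105 or array 2 of day 49 and 7 at most. None of 7 class II antigen presentation genes passed (median −0.41, with H2-DMa, which helps to load their peptides, at −0.94 and adjusted p 0.174), and of 10 class I genes only the peptide trimmer Erap1 did, which rose by 1.07. Without array 1 of day 105, 2 of the 7 class II genes (median −1.06) and 6 of the 10 class I genes (median −0.94) fell, and the class II median was 0.34 without array 2 of day 105.

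Genes of the cells that build the peritoneal matrix were lower on day 105. Of 33 tested fibroblast and collagen matrix genes 9 fell and none rose (median −0.82), and 15 had all day 105 arrays below all day 49 arrays, against 16.7% of all genes. The number that fell was 2 without array 2 of day 105 and 15 at most, and 2 with the Dap reading as a covariate. Pcolce was at 8.57, 7.35 and 8.31 on day 105 and at 11.60, 10.94 and 9.97 on day 49 (SE 0.47, limma adjusted p 0.00386). Dpt (dermatopontin, which binds collagen fibres) was at 10.31, 7.44 and 7.75 on day 105 and at 11.16, 11.02 and 10.98 on day 49 (log2 −2.55, SE 0.53, limma adjusted p 0.00867). Array 1 of day 105 was close to day 49 for Dpt, and that call was lost without array 2 of day 105, while Pcolce kept its call with any array left out. Ogn, a small proteoglycan (−2.40, overlapping), and Loxl1, an elastin cross-linking enzyme (−2.03), fell too, and Col1a1, a chain of the main collagen, did not pass (0.01, adjusted p 0.996). The sum over 34 measured fibroblast genes was 45723 to 74271 on day 105 and 85703 to 118121 on day 49.

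Mesothelial genes, which mark the cells that cover the peritoneum, fell in 7 of 11 tested (median −1.65), with none past the threshold without array 2 of day 105 (median −1.59) and none with the Dap reading as a covariate (median −1.39). Upk3b, a mesothelial surface protein, was at 10.16, 9.27 and 9.32 on day 105 and at 12.56, 11.81 and 10.20 on day 49 (log2 −1.94, SE 0.55, limma adjusted p 0.0276). Krt8, a keratin of simple epithelium (−2.65), Bnc1, a zinc finger protein (−1.86), and Cav1, the coat protein of caveolae (−1.75), fell too. Array 3 of day 49 was the lowest of its day for Upk3b, Krt8, Bnc1 and Cav1. The fat cell gene Adipoq and the smooth muscle gene Myh11 varied widely between specimens of a day. Adipoq, the hormone of fat cells, was at 11, 8.08 and 9.00 on day 105 and at 4.33, 13.57 and 12.01 on day 49, and Myh11, the smooth muscle myosin, was at 8.45, 5.52 and 8.30 on day 105 and at 12.53, 9.14 and 7.22 on day 49. Neither passed the test, and array 1 of day 49 was the lowest of all 6 for Adipoq and the highest for Myh11. Of 15 tested adipocyte genes 3 fell, Fabp4, Plin4 and the glucose transporter Slc2a4 (−2.02), with 0 to 12 falling when an array was left out and none without array 2 of day 105. The other tested Slc2a4 probe set did not pass (−0.875, limma adjusted p 0.101). Of 13 smooth muscle genes 1 fell (caldesmon, Cald1, −1.62; median −1.78, 0 to 9 with an array left out).

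Endothelial genes fell in 5 of 18 tested (median −0.63), in 1 without array 3 of day 105 and in 6 at most. Cd34, a surface mucin of vessels and fibroblasts, was at 10.15, 9.41 and 9.15 on day 105 and at 11.12, 11.14 and 11.44 on day 49 (log2 −1.66, SE 0.29, limma adjusted p 0.00438) and kept its call with any array left out. The diaphragm protein Plvap (−1.37), the junction protein Esam (−1.22) and the receptor partner Ramp2 (−1.14) fell as well. In the lymphatic list 2 of 5 tested genes fell, Vegfc, the growth factor of lymphatic vessels (−1.70), and Pdpn (podoplanin, −0.82). The only positive difference of that list, 1.52, did not pass. None of the list fell without array 2 or 3 of day 105, and the Pdpn call was also lost without array 1 or 2 of day 49. Of 15 tested TGF beta genes 5 fell, and the target Id3 was at 8.64, 6.87 and 7.17 on day 105 against 10.13, 10.35 and 9.07 on day 49 (log2 −2.29, SE 0.40, limma adjusted p 0.00433). The ligand Tgfb3 (−1.82), the induced matrix protein Tgfbi (−1.54) and the receptor Tgfbr2 (−1.21) were the others named, and the Id3 and Tgfbi calls held with any array left out and were the only ones without array 2 or 3 of day 105. Of 15 matrix protease genes 5 fell, with Adam8 (−1.94), Timp2, an inhibitor of metalloproteases (−1.47), and the aggrecanase Adamts5 (−1.42) beside Mmp9, and 1 fell without array 2 of day 105. In the prostaglandin list 4 of 11 fell, led by Ptgis, the prostacyclin synthase, which was at 10.90, 9.97 and 9.55 on day 105 and at 12.79, 12.49 and 11.78 on day 49 (log2 −2.21, SE 0.42, limma adjusted p 0.00582). The leukotriene synthase Ltc4s (−1.66), the prostaglandin E synthase Ptges (−0.87) and the lipoxygenase partner Alox5ap (−0.86) followed, and 1 of the list fell without array 2 or 3 of day 105. Of 11 hypoxia and angiogenesis genes 6 fell and 1 rose: Angptl4 (−1.54), an inhibitor of lipoprotein lipase, and Ndrg1 (−1.26), a gene induced by low oxygen, were down and the mTOR inhibitor Ddit4 was up by 1.49 with overlapping groups.

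**Figure D3:**
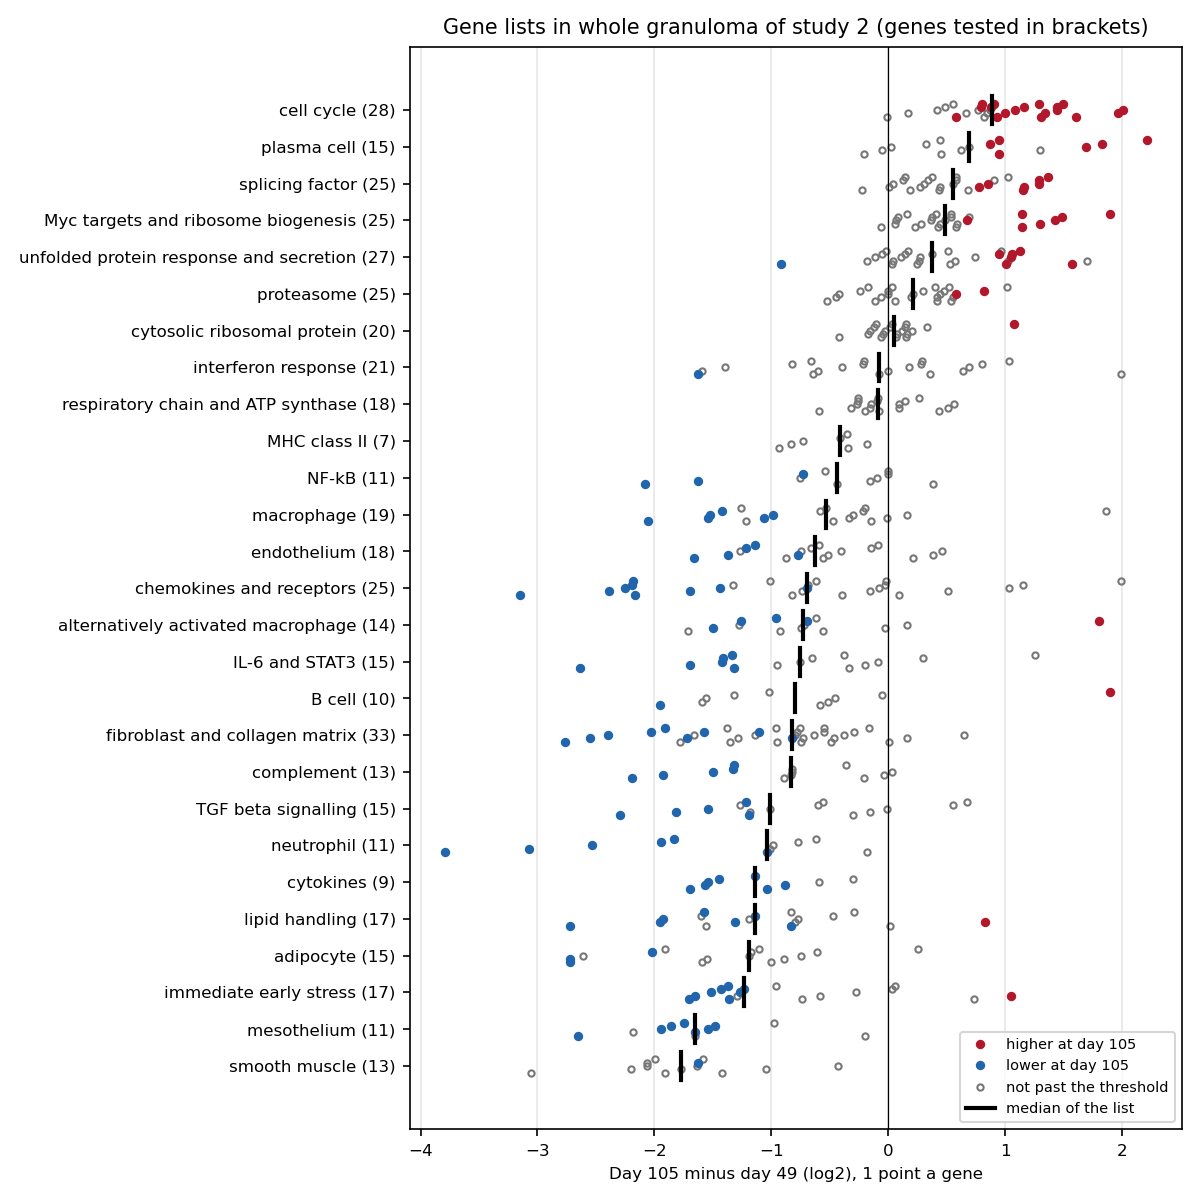
Log2 difference between day 105 and day 49 (horizontal axis) of each tested gene of a list, a row a list, with red and blue points for genes that rose or fell, open points for genes that did not pass and a bar at the median. Cell cycle has 18 of 28 genes higher and none lower, fibroblast and collagen matrix 9 of 33 lower and none higher, and mesothelium 7 of 11 lower.

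Polycomb genes and genes that handle extracellular nucleotides were among the increases. Bmi1, a subunit of polycomb repressive complex 1, was at 12.78, 11.82 and 12.37 on day 105 and at 10.61, 10.68 and 10.74 on day 49 (log2 1.65, SE 0.24, limma adjusted p 0.00197). Suz12 (1.34) and Ezh2 (0.99), a scaffold and the methyltransferase of polycomb repressive complex 2, rose and Phc2, a partner of Bmi1, fell (−1.65), so that 3 of 15 tested genes of that list rose and 1 fell. Entpd1 (CD39), which breaks down extracellular ATP, was at 11, 11.11 and 11.17 on day 105 and at 8.77, 9.41 and 9.66 on day 49 (log2 1.81, SE 0.26, limma adjusted p 0.00189). P2ry14, a receptor for UDP-sugars, was at 10.34, 9.92 and 9.52 on day 105 and at 7.41, 7.69 and 8.55 on day 49 (log2 2.04, SE 0.35, limma adjusted p 0.00427). The days did not overlap for Bmi1, Entpd1 or P2ry14, and their calls held with any array left out, while those of Suz12, Ezh2 and Phc2 were lost without array 2 of day 105. Of 6 tested genes of that group 3 rose, adenosine deaminase (Ada, 0.85) being the third, and the adenosine deaminase-binding peptidase Dpp4 fell (−1.49). Among 8 Bcl2 family genes the death-promoting Bcl2l11 (Bim, 1.61, overlapping) and the survival protein Bcl2l1 (0.86) rose and Bnip3 fell (−0.86), a call that any left-out array ended. None of the 3 other tested Bcl2l11 probe sets passed. Of 18 p53 response genes Pmaip1 rose and the kinase inhibitor Cdkn2b fell (−0.87). Of 13 glycolysis genes 1 fell, the aldolase Aldoa (−1.14). In the p53 response and glycolysis lists, the shares that rose or fell were not above those of all genes (7.94% and 11.6%). Of 8 tested imprinted growth genes 2 fell, Peg3 (−1.55) and Igf2 (−0.74). None of that list fell without array 2 or 3 of day 105 or array 1 or 2 of day 49. The Igf2 call was also lost after quantile normalization. Of 4 tested genes of lymphoid tissue organisation 1 fell, the lymphotoxin receptor Ltbr (−1.49). That call was lost without array 2 or 3 of day 105 or array 1 of day 49.

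Markers of neighbouring organs were low or uneven. Of 14 measured skeletal muscle genes 13 were too low to be tested, and Ckm, the muscle creatine kinase, was at 6.99, 7.17 and 7.55 on day 105 and at 11.28, 6.73 and 6.91 on day 49, high in array 1 of day 49 alone. Cyp2e1, an enzyme of liver and fat cells, was at 10.92, 9.41 and 10.34 on day 105 and at 5.24, 13.11 and 12.06 on day 49. The erythroid gene Alas2 was at 8.45, 8.58 and 6.77 on day 105 and at 10.44, 9.86 and 6.99 on day 49. None of these 3 passed. Epcam, a surface protein of epithelia, was at 13.22, 11.37 and 12.90 on day 105 and at 10.36, 10.74 and 11.56 on day 49 (log2 1.61, SE 0.50, limma adjusted p 0.0361), with array 2 of day 105 inside the day 49 range. The pancreatic elastase Cela1 (−1.13) and the myelin protein Pmp22 (−1.12) fell. How far the tissue taken with each granuloma entered the changes of fat and muscle genes was not tested.

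Day 105 also stood apart from the 3 earlier days. Against the 9 arrays of days 7, 17 and 33, 704 genes were higher (9.05%) and 930 lower (12%) on day 105, 21% in all. Both comparisons share the day 105 arrays, and 444 of the increases and 662 of the decreases against day 49 were called in both. No gene was called between day 49 and days 7, 17 and 33 with limma, and 412 were below an unadjusted p of 0.05. In 264 of the 618 increases all 3 day 105 arrays were above all 12 other arrays, as for 4.63% of all genes, and in 282 of the 901 decreases they were below all 12, as for 4.19% of all genes. The 12 include the day 49 arrays by which these genes were called, so part of that separation is built into the choice of genes. Klra17 ranged from 5.84 to 10.38 over days 7 to 33, below every day 105 array, and Nbea from 6.97 to 9.90. Ighm was at 14.34 to 15.03 on those days and Cxcl1 at 8.79 to 10.45, both above every day 105 array. S100a9 was at 8.89 to 10.88 on the earlier days, so that its day 49 arrays 1 and 2 were above that range and array 3 just below it, and its day 105 arrays were below all of it. Myc was higher on day 105 than on days 7, 17 and 33 by 0.93 (SE 0.22, limma adjusted p 0.0103). Its difference against day 49 (0.60, SE 0.27) did not pass, and whether these differences are unequal was not tested.

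**Figure D4:**
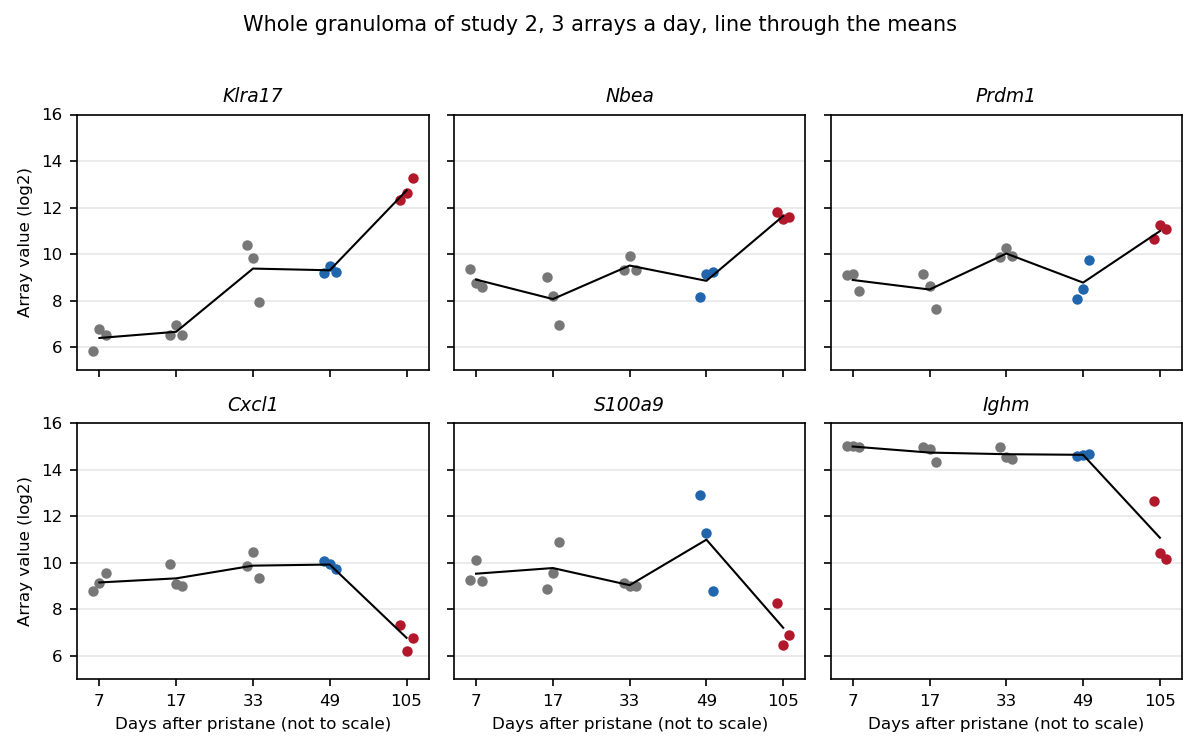
Log2 array signal (vertical axis) of single genes on days 7, 17, 33, 49 and 105 (horizontal axis, not to scale), with a point for each of the 3 arrays of a day and a line through the means. Klra17 stays between 5.84 and 10.38 up to day 33, lies between 9.19 and 9.48 on day 49 and reaches 12.31 to 13.26 on day 105, and Ighm stays between 14.34 and 15.03 up to day 33 and lies between 10.16 and 12.67 on day 105.

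The laser-captured plasma cells of the same days changed in fewer genes by the same threshold. They came from 3 specimens on each day, and 59 of 7780 genes were higher (0.758%) and 20 lower (0.257%) on day 105 than on day 49, 1.02% in all, with 1824 below an unadjusted p of 0.05. Of the whole granuloma calls, 43 increases and 17 decreases were also called in the captured cells. Among the 152 genes named here that passed in whole tissue, 12 passed there too. The increases were Klra17 (3.94), Nbea (2.65), Serpini1 (2.35), Bmi1 (2.15), Entpd1 (2.06), Cited2 (1.89), P2ry14 (1.81) and Arsg (1.60). The decreases were Ighm (−4.05), Dpt (−2.70), Cxcl1 (−2.50) and Adam8 (−1.92). Dpt and Cxcl1 are made by stromal and myeloid cells, and the share of other cells in the captured material was not tested. The captured cells and the sections came from the same specimens, so they are not independent. A direct test of whether the day difference itself differed between whole tissue and captured cells (30 specimen averages, specimen as a random block with a correlation of 0.131) called 1 gene (0.0129%), Sncg, with 899 below an unadjusted p of 0.05. For the remaining genes a call in whole tissue and none in captured cells is therefore not shown to be a difference.

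**Figure D5:**
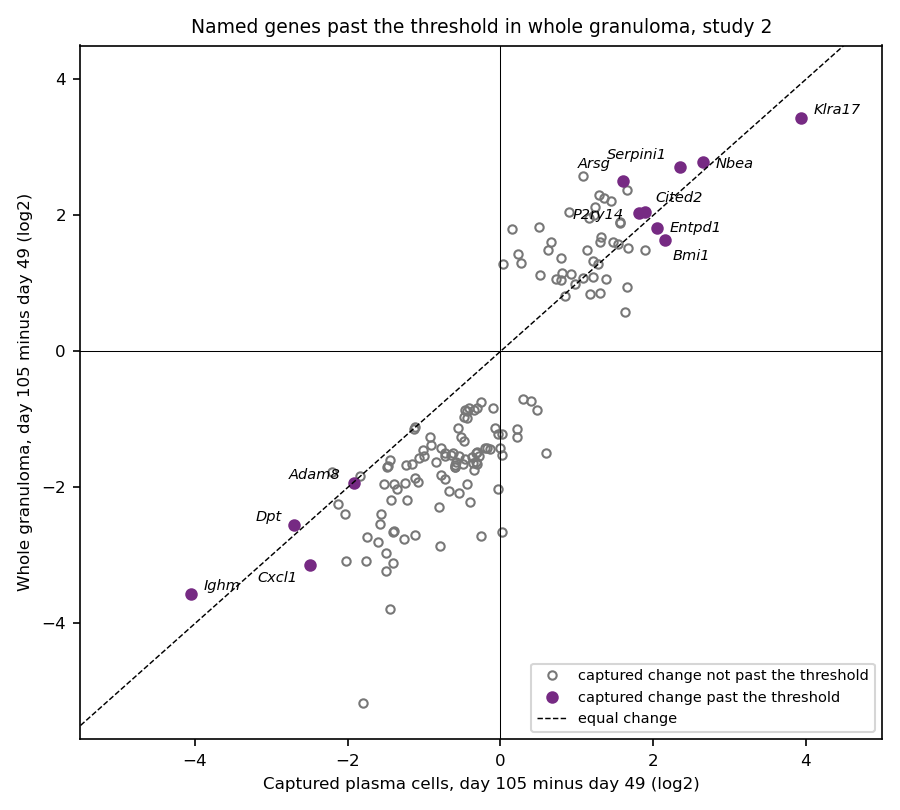
Log2 difference between day 105 and day 49 in whole granuloma (vertical axis) against that in captured plasma cells (horizontal axis), with a point for each of the 152 named genes past the threshold in whole granuloma, filled for the 12 that also passed in captured cells, and a dashed line of equal differences. Klra17 is at 3.43 in whole granuloma and 3.94 in captured cells, Ighm at −3.56 and −4.05, and S100a9 at −3.79 and −1.45.

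Study 1 offers no replicate of the last day, since its day 104 whole tissue was 1 specimen measured on 3 arrays, and it had no whole tissue of day 46. Its difference between day 104 and the 7 specimens of days 7, 17 and 33 is given as a description. It was positive in 240 of the 618 genes that rose here (38.8%, against 49.6% of all tested genes) and negative in 472 of the 901 that fell (52.4%, against 50.4%). Among single genes, Klra17 was 2.31 higher, Myc 1.24 higher and Ighg3 4.27 higher in that specimen, while all 21 tested interferon genes were lower. Xist was at 4.39 in that specimen and averaged 9.61 over the earlier specimens, so in study 1 the day cannot be told apart from a difference in this transcript of female cells.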

How the data were processed

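Whole granuloma sections of study 2 (15 arrays, days 7, 17, 33, 49 and 105) were analysed, with captured plasma cells of the same study and whole tissue of study 1 beside them. Total RNA was amplified in 2 linear rounds and labelled with biotin, per the labels' protocols. The authors deposited log2 values of 22690 probe sets, which were made by RMA in the Partek software as the submitters' processing notes list them. Their versions were not stated. The 4 sets of study and tissue type look normalized separately, so no levels were compared across them. A total of 20393 probe sets had 1 gene symbol (20364 matched by gene identifier), 691 had several and 1606 none, and 12393 genes were each represented by its brightest probe set on average across the 82 arrays. Where a gene has several probe sets, the size given is that of 1 probe set, and no named gene had another past the threshold in the opposite direction.

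The 15 whole granuloma arrays were fitted in R 4.3.3 using limma 3.58.1 (lmFit, eBayes), which left 10 residual degrees of freedom, after a filter on low values (above the column median on at least 3 arrays), and p-values were adjusted by Benjamini-Hochberg over 7780 genes with a threshold of 0.05. The fit was tested on simulated data. The number of arrays limits the precision. Captured cells were averaged by specimen.

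Named genes were the 12 largest increases and 12 largest decreases with groups that did not overlap (immunoglobulin and sex-linked genes described as groups), up to 4 members past the threshold of each list with the largest change, the member with the largest difference of a list where none passed, and Myc and Xist. Pou2af1, Ell2, Xbp1, Sdc1, Jchain, Mcm5, Top2a, Cdk1, Mki67, Ddit3, Cxcl9, Col1a1, Adipoq, Myh11, Abcg1, Igha, Igkv8-30, Ighg3, Igkv19-93 and the further kappa segment given beside it were added after their values were seen. The members and lists were chosen with earlier results of these data known. Linear sums of a list add 2 to the power of each value, so bright genes weigh most. Alternatives were other scalings, filters, fits and covariates and each array left out. Promoter windows of 250 bases came from RefSeq (GRCm38.p6), which matched 6322 of the 7780 genes.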

Additional observations from a re-analysis of the deposited data

Results flagged for a closer look

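Sncg (gamma-synuclein, a protein of nerve and fat cells) was the only gene for which the difference between the days was called unequal in whole granuloma and captured plasma cells by the test of that difference itself. In whole granuloma it was at 6.46, 6.04 and 6.03 on day 105 and at 8.73, 8.97 and 7.72 on day 49 (log2 −2.30, SE 0.33, limma adjusted p 0.00189). All day 105 arrays were below all day 49 arrays. In captured cells it averaged 3.38 ± 0.09 on day 105 and 3.56 ± 0.28 on day 49 (SD, 3 specimens each; difference −0.18, adjusted p 0.723), near the floor of the array on both days. The whole granuloma difference minus the captured cell difference was −2.12 (SE 0.37, limma adjusted p 0.0426).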

How the results depend on the processing

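Of the 152 named calls, 149 were kept under quantile normalization, 149 under median centring, 144 with the replicate block, 128 with no filter on low values, 128 with the difference between 3-prime and 5-prime control probe sets as a covariate, 120 with all study 2 specimens in the fit, 38 with the Dap reading as a covariate and 4 with the 6 arrays alone. With an array left out, 50 to 145 were kept, and 45 were kept with each of the 6 left out. The number of genes higher was 934 under median centring, 382 with all study 2 specimens, 2 with the 6 arrays alone and 62 with the Dap covariate, and it ranged from 93 to 972 with an array left out. The number lower was 3 with the 6 arrays alone and 123 with the Dap covariate, and it ranged from 164 to 1344. The replicate block gave 604 higher and 1013 lower. Deviations of same-numbered arrays correlated at −0.07, 0.01 and −0.08, so the numbers were not taken as pairs. Values without a call changed sign for Ckm without array 1 of day 49 (0.42, from −1.85 to 0.42 over the left-out arrays), for Cyp2e1 with the Dap covariate (−1.43), without array 1 of day 105 (−0.26) and without array 1 of day 49 (−2.36, limma adjusted p 0.0481; from −2.36 to 1.57 over the left-out arrays), and for Xist with the Dap covariate (−0.07) and without array 3 of day 105 (−0.01). The cause was not tested. Signal near the floor limits what low genes can show.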

Other observations

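Of the 43 genes called higher on day 105 in both whole granuloma and captured plasma cells, 4 that act in glycan synthesis are given here. They were picked after their values were seen, and no list of such genes was counted. C1galt1, which starts the main mucin-type O-glycan, was at 9.53, 10.31 and 10.40 on day 105 and at 8.35, 8.48 and 7.97 on day 49 in whole granuloma (log2 1.81, SE 0.26, limma adjusted p 0.00189), and differed by 2.05 in captured cells (SE 0.37, limma adjusted p 0.00725). Man1a2, a mannosidase that trims N-glycans, was at 10.12, 10.89 and 10.60 on day 105 and at 8.37, 9.05 and 9.40 on day 49 (1.60, limma adjusted p 0.00631), and differed by 1.62 in captured cells (limma adjusted p 0.0205). None of these arrays overlapped between the days. Extl2 (1.49 in whole granuloma, 2.02 in captured cells), an enzyme of heparan sulfate, and St6gal1 (0.93 and 2.04), which adds sialic acid to N-glycans of B cells, were called higher in both.

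Of the 17 genes called lower in both, 4 are given, also picked after their values were seen. Socs2, an inhibitor of growth hormone and cytokine receptors, was at 7.99, 8.23 and 7.93 on day 105 and at 9.22, 9.76 and 9.27 on day 49 (log2 −1.37, SE 0.21, limma adjusted p 0.00245) and differed by −1.89 in captured cells. Spry2, an inhibitor of receptor tyrosine kinase signalling, was at 7.07, 6.05 and 6.50 on day 105 and at 8.74, 8.20 and 8.16 on day 49 (−1.82, SE 0.30, limma adjusted p 0.00362) and differed by −1.49 in captured cells. Both sets of arrays were separate between the days. Arg2, the mitochondrial arginase (−2.16 in whole granuloma, −1.65 in captured cells), and the scavenger receptor Colec12 (−2.05 and −1.81) were lower in both too.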
